A study of Danio rerio with 4 samples.

Results

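The 300 most abundant genes of wild-type zebrafish larval liver cells were chosen by the lower of their 2 RPKM values, 1 from a library at 5.5 days post fertilization (dpf) and 1 from a library at 7.5 dpf. RPKM divides reads by gene length and by the size of the library, so that a share of the RPKM sum approximates a share of transcript molecules. The 300 genes came from 33737 in the deposited table, of which 8003 were above 0 in both libraries. The study as a whole compared zc3h8-/- mutant and wild-type larvae in 4 libraries, and only the 2 wild-type libraries enter here. Both wild-type groups had the strain label ABGO and carried the transgene Tg(lfabp:Dendra2-NTR), in which the promoter of the liver fatty acid binding protein gene marks hepatocytes with the fluorescent protein Dendra2. Livers were dissected, dissociated with trypsin and sorted by flow cytometry, and cDNA was made by Smart-seq2, an amplification method for small RNA inputs. There was 1 library per stage, and the labels do not say how many larvae went into each. There are therefore no replicates and no test between stages was possible. Smart-seq2 reads carry no molecular identifiers and are not independent molecules, so the intervals given below reflect counting alone. The 5.5 dpf library had 35960983 reads on genes and the 7.5 dpf library 36999967. At this similar depth, 13137 genes were above 0 RPKM at 5.5 dpf but only 9621 at 7.5 dpf. The reason for this difference was not tested, and it bears on every comparison of the stages.

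Hepatocytes make most proteins of the blood plasma, among them the apolipoproteins that carry lipid, transferrin that carries iron, clotting factors and protease inhibitors. They also break down amino acids, make glucose, detoxify foreign compounds and bind fatty acids inside the cell. Proteins bound for the plasma are made on ribosomes at the endoplasmic reticulum, and the energy comes mainly from mitochondria, whose respiratory chain is built from subunits of both the mitochondrial and the nuclear genome.

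The 3 hepatocyte markers all lay near the top of the ranking. That ranking also chose the genes, and the fabp10a promoter drove the sorted marker, so these ranks are a description only. The apolipoprotein gene apoa2 ranked 3, fabp10a, the liver fatty acid binding protein gene, ranked 4 and tfa, the transferrin gene, ranked 16. Markers of blood cells and vessels were at or close to 0: the summed RPKM of the neutrophil list was 12.5 at 5.5 dpf and 3.31 at 7.5 dpf, that of the macrophage and other leukocyte list 9.79 and 1.49, and that of the endothelial list 0.675 and 0.309. The erythroid list summed to 12.02 RPKM at 5.5 dpf and 0.427 at 7.5 dpf. The genes alas2, ptprc, lcp1 and cdh5 were at 0 in both libraries, but other listed genes were detected. At 5.5 dpf hbae3 was at 7.89 RPKM, coro1a at 5.31 and lyz at 9.55, and all were at 0 at 7.5 dpf. The gene mmp9 was at 0 at 5.5 dpf and at 3.26 RPKM at 7.5 dpf. Every list but that of hepatocytes held genes that matched no ID, such as csf1ra and spi1b of the macrophage and other leukocyte list. The sums given here therefore cover only parts of those lists. Digestive enzyme genes of the exocrine pancreas summed to 471 RPKM at 5.5 dpf and 2016 at 7.5 dpf. That is 0.0686 and 0.301% of the RPKM sum. The 20 listed genes matched 14 IDs, and none of these was among the 300. The list of skin, muscle and lens genes was larger, with a summed RPKM of 5751 and 10586 (0.838 and 1.58% of the sum). It had 4 of its 12 matched genes among the 300, of which the keratins krt4, cyt1l and cyt1 made up most of its sum. In these sorted samples, fewer cells of a type and less RNA per cell cannot be told apart.

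The 300 genes held 73.9% of the RPKM sum at 5.5 dpf and 74.1% at 7.5 dpf. Counted as reads, without division by gene length, they held 67.0% at both stages (95% Wilson interval 66.9996 to 67.0304% and 66.9868 to 67.0171%). The transcript pool was concentrated in few genes. At 5.5 dpf 43 genes were enough for 50% of the RPKM sum and 479 for 80%. At 7.5 dpf these numbers were 35 and 474. When each library was ranked by itself, 241 genes lay in the highest 300 of both, which is 80.3% of each list. The median RPKM of the 300 genes was 576 at 5.5 dpf and 509 at 7.5 dpf.

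**Figure D1:**
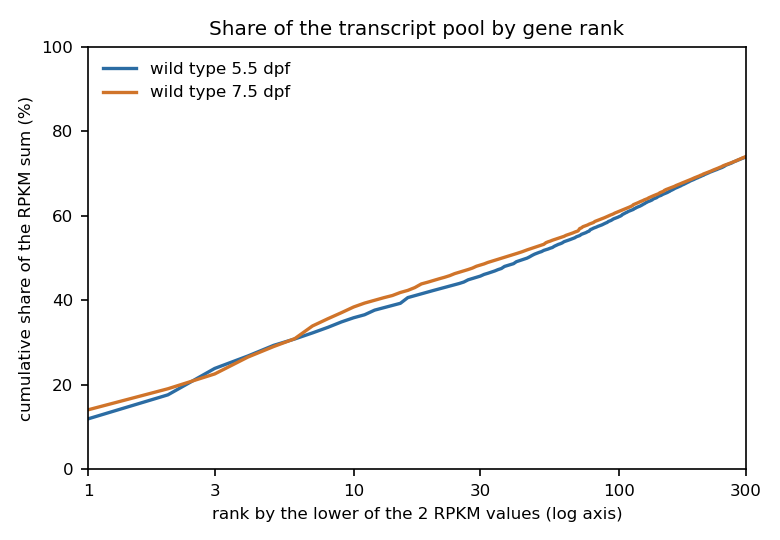
Cumulative share of the RPKM sum (%, vertical axis) over the 300 genes by rank (log axis), with 1 line for each wild-type library. Both lines start at the most abundant gene (11.9 and 14.0%) and end at 73.9 and 74.1%, and lie close to each other in between.

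The rule fixed the membership by level, so the levels describe the choice and are no finding. The lowest places inside were held by socs3, eef1b2 and ddx5, with lower RPKM values of 214, 212 and 210.6. Just outside were igfbp1b at 210.5, an ID without symbol (ENSDARG00000088449) at 210.45 and atp6v1g1 at 210.2. Of the 300 genes, 181 were placed in a class by patterns of gene symbols and 119 by hand, mostly from the Description column of the annotated tables, which names a similar UniProt protein, often of another species. The Description column was empty for 18 genes. Of these, apoa2 and ier2b were placed by their symbol, and the other 16 were given no function and are kept as a group of their own.

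The same values chose the genes and give the difference between stages, so the counts of differences are a description. On the scale of log2(RPKM + 1), 12 genes lay 2-fold or more above their 5.5 dpf value in the 7.5 dpf library, 22 lay as far below it, and 266 stayed within 2-fold. Of all 9523 genes whose mean RPKM reached 1, 26.1% were 2-fold higher and 37.0% lower. Of the 688 genes whose mean RPKM reached 100, 9.45% were higher and 12.2% lower. Nothing is read from the smaller counts here, since a gene had to be high in both libraries to be chosen. Of the 22 lower genes, 8 encoded secreted plasma proteins and 4 nuclear subunits of the respiratory chain and ATP synthase. Of the 12 higher genes 3 belonged to intermediary metabolism, pklr and ucp1 among them, 2 were keratins and 1 was fetub. When genes were ranked by the mean of both libraries, 22 were 2-fold higher and 30 lower.

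**Figure D2:**
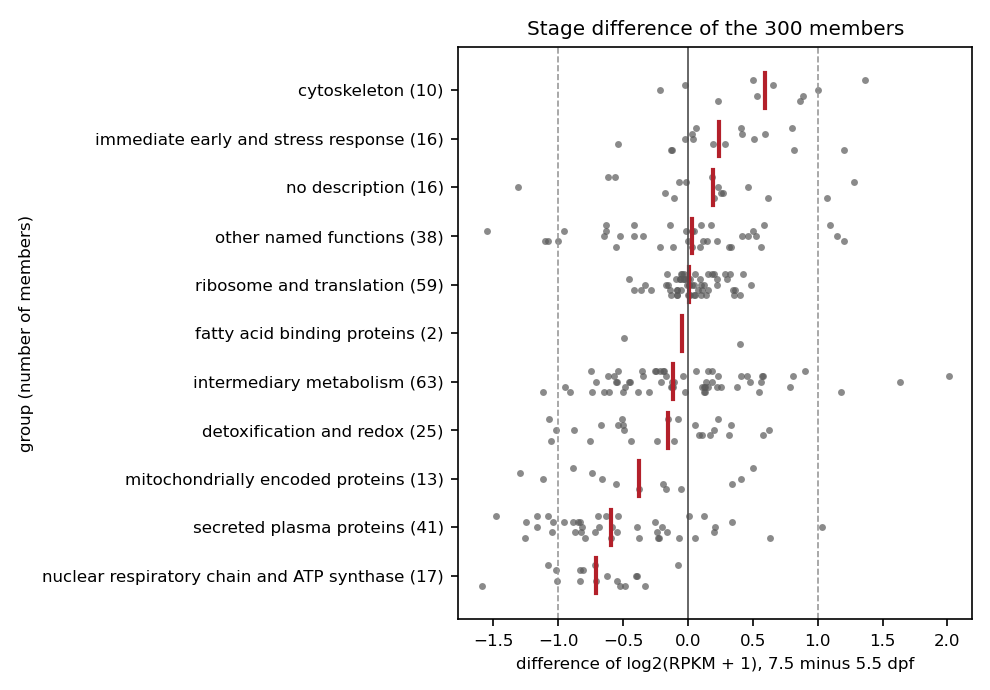
Difference of log2(RPKM + 1), 7.5 minus 5.5 dpf, for each of the 300 genes (points) by functional group, with group medians as red lines and 2-fold as dashed lines. Nuclear respiratory chain and ATP synthase genes lie below 0 in 17 of 17 cases. Ribosome and translation genes lie within −0.45 and 0.48, and pklr is the point beyond 2.

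The 16 genes with neither a description nor a class by symbol held 15.3% of the RPKM sum at 5.5 dpf and 18.1% at 7.5 dpf, apoa2 and ier2b being counted elsewhere. The most abundant entry, ENSDARG00000080337, had neither a symbol nor a description. It stood at 81647 RPKM at 5.5 dpf and 93850 at 7.5 dpf, which is 11.9 and 14.0% of the RPKM sum, and its length as implied by reads and RPKM was 1683 bases. The entry ENSDARG00000082753, ranked 6 and implied to be 952 bases long, was at 10394 and 12403 RPKM. The entry ENSDARG00000070212 was at 3215 and 4421 RPKM. Each of these entries was thus a little more abundant in the 7.5 dpf library. In all, 7 of the 300 had neither name nor description and took 14.2% of the RPKM sum at 5.5 dpf and 17.0% at 7.5 dpf. Whether these 7 encode proteins was not determined here, and their share belongs to no function given below. Short features also entered the ranking through the division by length: ENSDARG00000089384, implied at 90 bases, was at 493 RPKM from 1594 reads at 5.5 dpf and at 1195 RPKM from 3980 reads at 7.5 dpf. Similarly short was ENSDARG00000085168, implied at 92 bases and at 625 and 755 RPKM.

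**Figure D3:**
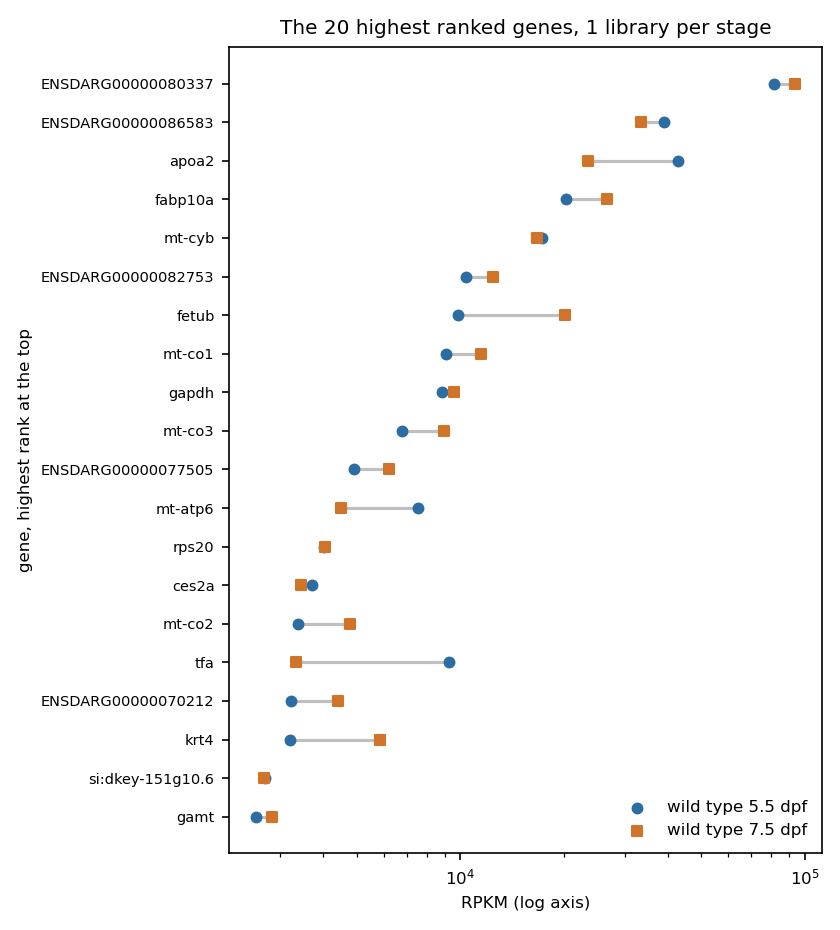
RPKM (log axis) of the 20 highest ranked genes in the 5.5 dpf library (circles) and the 7.5 dpf library (squares), 1 row per gene, joined by a grey line. Most pairs lie close together, with apoa2 and tfa lower and fetub and krt4 higher at 7.5 dpf.

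Secreted plasma proteins were the largest described group, and their share was lower in the older library. Its 41 genes took 20.5% of the RPKM sum at 5.5 dpf and 16.3% at 7.5 dpf. Of the 41, 33 were lower at 7.5 dpf, beside 168 of the 300 (56%). The median difference of log2(RPKM + 1), 7.5 minus 5.5 dpf, was −0.59, beside −0.063 over the 300 genes and −0.19 over the 9523 background genes. Without fetub the share went from 19.0 to 13.3%, and without apoa2 from 14.2 to 12.8%.

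**Figure D4:**
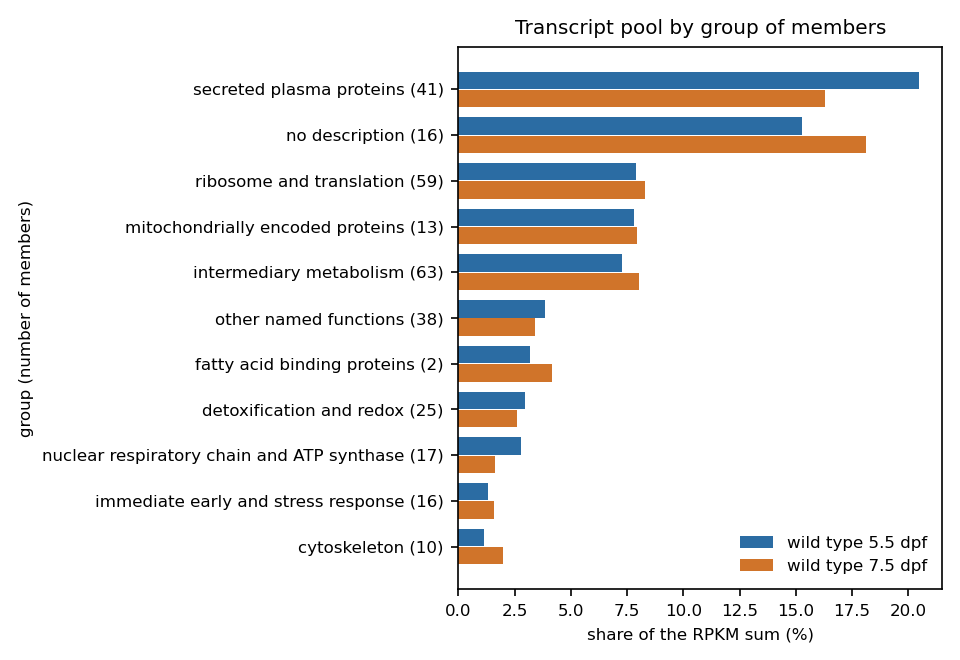
Share of the RPKM sum (%, horizontal axis, from 0) held by each functional group of the 300 genes at 5.5 and 7.5 dpf, with the number of genes in parentheses. Secreted plasma proteins took 20.5 and 16.3%, the 16 genes without description (leaving out apoa2 and ier2b, placed by symbol) 15.3 and 18.1%, and the next largest, ribosome and translation, 7.92 and 8.31%.

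Apolipoproteins, the protein part of lipoprotein particles, led the group with 7 members. They took 13.1% of the RPKM sum at 5.5 dpf and 9.14% at 7.5 dpf. At 7.5 dpf 7 of 7 were lower, beside 56% of the 300. The gene apoa2, whose product is carried on high density lipoprotein, was at 42933 RPKM at 5.5 dpf and at 23454 at 7.5 dpf, a 1.83-fold lower level (95% counting interval 1.83 to 1.84). It thus alone passed from 6.25 to 3.51% of the pool. The gene ENSDARG00000086583, described as apolipoprotein A-I-2, differed less, with 39138 and 33415 RPKM. It was therefore below apoa2 in the younger library and above it in the older one. The gene apom, for a lipoprotein-borne carrier of lipids such as sphingosine-1-phosphate, was at 3180 and 1417 RPKM, 2.24-fold lower (2.22 to 2.27). The gene apoa4b.1, which the deposited description calls apolipoprotein Eb and which was also on the intestine marker list, was at 2329 and 1307 RPKM. Outside the 300, the apolipoprotein symbol pattern matched 10 more background genes, and the highest of these was apod at 110 and 148 RPKM. All 16 background genes of the pattern had a median difference of −0.18, beside −0.19 over all background genes. Of the 16, 3 were 2-fold lower and 1 higher, beside 37.0 and 26.1% over all background genes.

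Carriers and other plasma proteins did not move together. The 23 genes of this class held 6.26% of the RPKM sum at 5.5 dpf and 6.41% at 7.5 dpf. The gene fetub, for the protease inhibitor fetuin-B, was at 9850 RPKM at 5.5 dpf and at 20186 at 7.5 dpf, 2.05-fold higher (2.04 to 2.06), which fell short of 2-fold under median-ratio scaling (0.95 on the log2 scale). Without fetub the class went from 4.82 to 3.39%. Transferrin went the other way, with tfa at 9281 and 3322 RPKM, 2.79-fold lower (2.78 to 2.81). The gene ENSDARG00000077505, described as retinol-binding protein 4-A, a vitamin A carrier, was at 4906 and 6200 RPKM. The gene serpina1l, for a protease inhibitor of the alpha-1-antitrypsin type, was at 3634 and 2093. The 2 IDs with the symbol vtn, the vitronectin gene, were at 628 and 588 RPKM at 5.5 dpf and at 264 and 262 at 7.5 dpf. Reads of such copies may have been split in counting, so that the level of either is uncertain. The gene tcnbb, described by its likeness to intrinsic factor, a vitamin B12 binder, was at 1179 and 494 RPKM.

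Genes of blood clotting were lower at 7.5 dpf in 6 of 6 members, beside 56% of the 300. The differences of these 6 ran from −1.08 to −0.59 on the log2 scale. They took 0.696% of the RPKM sum at 5.5 dpf and 0.438% at 7.5 dpf. The fibrinogen gene fgg was at 1990 and 1283 RPKM, fgb at 511 and 242 and fga at 376 and 250. All 3 chains of fibrinogen, the precursor of the clot, were thus lower, though in different proportion. The gene kng1, for kininogen, was at 989 and 610 RPKM, and f2, for prothrombin, at 563 and 313. In the whole clotting symbol list, 4 of 20 background genes were 2-fold lower and 1 higher, beside 37.0 and 26.1% over all background genes. The median of these 20 was −0.45, beside −0.19 over all background genes. The whole clotting list took 0.816% of the RPKM sum at 5.5 dpf and 0.546% at 7.5 dpf. Complement, the plasma cascade that marks and lyses microbes, had 4 members with a median difference of −0.46. The gene ENSDARG00000094496, described as complement factor H, was at 1277 and 872 RPKM, cfb, for factor B of the alternative pathway, at 416 and 419, c9, for a pore-forming component, at 440 and 303, and c8g at 331 and 255. Under median-ratio scaling cfb was also lower. In the whole complement symbol list, 6 of 23 background genes were 2-fold higher and 3 lower, beside 26.1 and 37.0% over all background genes. Their median was −0.23, beside −0.19 over all background genes, and the whole list took 0.327 and 0.366% of the RPKM sum. The single member of the acute phase class, ENSDARG00000053227, described as hepcidin-2, the hormone that limits iron export, was at 464 and 250 RPKM.

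Fatty acid binding proteins consisted of 2 genes, which differed in direction. The gene fabp10a, whose promoter also drove the sorted marker, was at 20244 RPKM at 5.5 dpf and 26723 at 7.5 dpf, 1.32-fold higher (1.32 to 1.33). The gene fabp3 was at 1459 and 1038 RPKM.

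Subunits of the mitochondrial energy machinery come from both genomes. The 13 protein genes of the mitochondrial genome were all among the 300, and they took 7.81% of the RPKM sum at 5.5 dpf and 7.93% at 7.5 dpf. The cytochrome b gene mt-cyb was at 17274 and 16689 RPKM. Higher at 7.5 dpf were 3 cytochrome oxidase genes, with mt-co1 at 9061 and 11462, mt-co3 at 6758 and 8992 and mt-co2 at 3381 and 4789. The other 10 were lower, among them mt-nd4 at 2363 and 2099, mt-atp6 at 7512 and 4507, mt-nd5, for a subunit of complex I, at 1759 and 716, and mt-atp8 at 577 and 266. The median difference over the 13 was −0.38.

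Nuclear genes of the respiratory chain and ATP synthase were lower at 7.5 dpf in 17 of 17 members. Together they took 2.78% of the RPKM sum at 5.5 dpf and 1.63% at 7.5 dpf, and the median difference was −0.71. The gene atp5mc1, for a subunit of the ring through which ATP synthase conducts protons, was at 2677 and 889 RPKM, 3.01-fold lower (2.97 to 3.05). Its relative atp5mc3b, described by the same protein name, was at 1601 and 1275. The gene atp5f1c, for the central shaft of ATP synthase, was at 2124 and 1057, and atp5f1b, for its catalytic subunit, at 1363 and 1032. The cytochrome oxidase gene cox4i1 was at 1685 and 944, and cox5b at 1945 and 921. The 11 ATP synthase members had a median of −0.71 and the 6 members of complexes I and IV one of −0.54, so that both parts were lower. In the whole symbol list, which also holds assembly factors, 22 of 92 background genes were 2-fold lower and 3 higher. These are smaller shares in both directions than the 37.0 and 26.1% over all background genes, while the median was −0.56 beside −0.19.

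Genes of the ribosome and of translation among the 300 all stayed within 2-fold. Of the 300 genes 59 belonged here, and they took 7.92% of the RPKM sum at 5.5 dpf and 8.31% at 7.5 dpf. The differences ran from −0.45 to 0.48. The 47 genes of cytosolic ribosomal proteins had a median difference of 0.012 with 26 above 0 and 21 below. Under median-ratio scaling of the 2 libraries the median was −0.078, with 15 above 0 and 32 below. The gene rps20 was at 4019 RPKM at 5.5 dpf and 4048 at 7.5 dpf, a ratio of 1.01 (0.997 to 1.02), and rps7 at 2356 and 2370. The gene rpl32 was at 2483 and 2619. Also among the 30 highest were rps2 at 2111 and 2352, rpl3 at 2088 and 2239 and rpl7 at 1934 and 1862. Among translation factors, eef1a1l1, for the factor that brings aminoacyl-tRNA to the ribosome, was at 1499 and 1469, tpt1 at 964 and 1205, eif5a at 1103 and 805 and eef1g at 509 and 712. Levels differed far more between these genes than between stages: the ribosomal protein members spanned 219 to 4019 RPKM at 5.5 dpf. In the whole symbol list of cytosolic ribosomal proteins, 1 of 74 background genes was 2-fold higher and 0 lower. Of 68 background genes in the translation factor list, 11 were 2-fold higher and 15 lower, all of them outside the 300. Over all background genes the shares were 26.1 and 37.0%.

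Carbohydrate metabolism held the widest difference of any of the 300 genes. The gene pklr, for pyruvate kinase, the last step of glycolysis, was at 941 RPKM at 5.5 dpf and 3791 at 7.5 dpf, 4.03-fold higher (3.99 to 4.07). It was the only gene of the 300 past 4-fold in either direction, and only narrowly so. Under median-ratio scaling its difference was 1.92 on the log2 scale, which is within 4-fold. Most abundant in the class was gapdh, at 8831 and 9612, and fbp1b, for a gluconeogenic phosphatase that opposes glycolysis, was at 1059 and 1373. Of the 18 genes, 10 were higher and 8 lower, and 9 and 9 under median-ratio scaling. The class took 2.91 and 3.76% of the RPKM sum, or 2.77 and 3.19% without pklr. Of the 43 background genes of the whole symbol list, 12 were 2-fold lower and 5 higher. Over all background genes the shares were 37.0 and 26.1%. The median of the 43 was −0.11, beside −0.19 over all background genes. The whole list took 2.81 and 3.73% of the RPKM sum.

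Enzymes of amino acid metabolism held a steady share, with 15 genes at 2.10 and 2.05% of the RPKM sum and none 2-fold different. Most of these members were lower all the same, 12 of the 15 beside 56% of the 300, and 3 were higher. Their median difference was −0.19. The 42 background genes of the whole symbol list had a median of 0.0086, beside −0.19 over all background genes. Of the 42, 5 were 2-fold higher and 8 lower, beside 26.1 and 37.0% over all background genes. The whole list took 2.15 and 2.32% of the RPKM sum. The gene gamt, for the last step of creatine synthesis, was at 2551 RPKM at 5.5 dpf and 2837 at 7.5 dpf. The gene agxt, for the enzyme that removes glyoxylate, was at 2148 and 3178. Its symbol is shared by another ID, which was outside the 300 at 195 and 200 RPKM. The gene bhmt, which remakes methionine from homocysteine, was at 2765 and 1862, and ahcy, which yields that homocysteine, at 862 and 850. Members on neighbouring steps of the methionine cycle thus did not share a ratio.

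Among mitochondrial and other enzymes, the ID with the symbol ucp1, described as mitochondrial uncoupling protein 2, was at 469 RPKM at 5.5 dpf and 1460 at 7.5 dpf, 3.12-fold higher (3.08 to 3.15). The gene suclg1, of the citric acid cycle, was at 1070 and 994. The gene oxct1b, described as an enzyme of ketone body use, was at 647 and 344. The gene uox, for uricase, which breaks down uric acid, was at 1959 and 1170, and hao1, for a peroxisomal oxidase that makes glyoxylate, at 1126 and 718. The gene alas1, for the first step of heme synthesis, was at 723 and 805, pnp4b, for a purine-releasing phosphorylase, at 732 and 860, and etfb, which passes electrons from fatty acid oxidation to the respiratory chain, at 491 and 454. Lipid metabolism had 6 members and took 0.399 and 0.357% of the pool. The gene acat1, of ketone body and acetyl-CoA metabolism, was at 373 and 555, faxdc2 at 330 and 570 and acadm, which oxidizes medium-chain fatty acids, at 472 and 320. The gene acaa2, for the last step of mitochondrial fatty acid oxidation, was at 757 and 454, and scp2a, for a sterol carrier, at 532 and 245, 2.17-fold lower.

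Detoxification and redox genes, 25 in all, took 2.94% of the RPKM sum at 5.5 dpf and 2.62% at 7.5 dpf. The carboxylesterase gene ces2a was at 3713 and 3454 RPKM, and ENSDARG00000005039, described as glutathione S-transferase P, at 2104 and 1320. The cytochrome P450 gene cyp2ad2 was at 536 and 571, and mgst3b, for a membrane-bound glutathione transferase, at 659 and 453. Antioxidant enzymes lay on both sides. The gene gpx4a, for a peroxidase that repairs membrane lipids, was at 1972 and 2953, while prdx1, for a peroxiredoxin, was at 2257 and 1605 and selenop, for a selenium carrier, at 799 and 940. The gene sod1, for cytosolic superoxide dismutase, was at 1221 and 587, 2.08-fold lower (2.05 to 2.11). The iron storage gene ENSDARG00000078342, described as the middle subunit of ferritin, was at 220 and 508, 2.31-fold higher (2.24 to 2.39), beside fth1a at 493 and 529.

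Immediate early and stress response genes, which cells switch on within a short time of a stimulus, numbered 16 and took 1.30% of the RPKM sum at 5.5 dpf and 1.57% at 7.5 dpf. This class was drawn up from the descriptions after the members were known. The gene fos, for a subunit of the transcription factor AP-1, was at 1741 and 1603 RPKM and ranked 36. The gene jun, for its partner, was at 746 and 1127. The gene ENSDARG00000088371, described as jun-B, was at 784 and 1118, and ENSDARG00000044395, described as TIS11, a protein that speeds mRNA decay, at 823 and 943. Of the 16 genes, 12 were higher and 4 lower at 7.5 dpf (9 and 7 under median-ratio scaling). The gene mcl1a, for an inhibitor of apoptosis, was at 318 and 736, 2.31-fold higher (2.27 to 2.36). The labels give no time between dissection and lysis.

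Keratins, the intermediate filament proteins of epithelia, stood out among cytoskeleton genes. The 6 keratin genes took 0.874% of the RPKM sum at 5.5 dpf and 1.61% at 7.5 dpf. The gene krt4 was at 3196 RPKM and ranked 18, and it was at 5829 at 7.5 dpf, 1.82-fold higher (1.82 to 1.83). The gene cyt1l was at 855 and 1715, 2.01-fold higher but within 2-fold under median-ratio scaling (0.91 on the log2 scale), and cyt1 at 649 and 1675, 2.58-fold higher (2.55 to 2.61), while krt1-19e was at 835 and 823. Of these, krt4, cyt1l and cyt1 belong to the skin, muscle and lens marker list, whose summed RPKM was 5751 and 10586. These same genes make up most of that sum, so it is not separate from the keratin levels. The keratin members krt18a.1, at 251 and 396 RPKM, and krt8, at 214 and 304, are on the list of biliary and stellate cell markers instead. That list had 2 of its 11 matched IDs among the 300 and summed to 560 RPKM at 5.5 dpf and 886 at 7.5 dpf. Of the 11 IDs, 8 were above 0 at 5.5 dpf and 8 at 7.5 dpf. Among them anxa4 was at 50.4 and 113, col1a2 at 13.6 and 19.1 and hand2 at 12.3 and 16.8. The gene acta2 was at 0 in both libraries. Other skin genes of the skin, muscle and lens list outside the 300 were also higher in the older library, with krt5 at 166 and 288 and krt91 at 89.5 and 434, whereas the muscle genes pvalb1 and ckmb were lower, at 406 and 261 and at 45.7 and 35.9. The part of skin, biliary or stellate cells in the keratin levels was not tested. The actin gene actb2 was at 891 and 1288.

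Proteins that fold and export other proteins had few members. The class of endoplasmic reticulum folding and secretion had 3 of the 300 genes. At 7.5 dpf 3 of 3 were lower, beside 56% of the 300. The gene ppib, for a proline isomerase of the endoplasmic reticulum, was at 1494 RPKM at 5.5 dpf and 509 at 7.5 dpf, 2.93-fold lower (2.89 to 2.98). The gene serp1 was at 1134 and 979 and ssr4, of the translocon-associated complex, at 409 and 264. Among cytosolic chaperones hspa8 was at 1800 and 2265, ENSDARG00000042247, described as a proline isomerase, at 1256 and 800, fkbp1aa at 876 and 438 and hsp90ab1 at 300.4 and 352. Of the 2 IDs with the symbol ubb, for polyubiquitin, one was at 1011 and 1516 and the other at 266 and 591. The gene msmbl, described as a microseminoprotein, was at 3388 and 1603, and g0s2, for an inhibitor of triglyceride breakdown, at 786 and 317.

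The remaining members fell into small classes. Nuclear and RNA-binding proteins were led by ybx1, for an RNA- and DNA-binding protein, at 1353 RPKM at 5.5 dpf and 1062 at 7.5 dpf, followed by nsa2, of ribosome biogenesis, at 463 and 683, cnbpa at 396 and 297 and pnrc2 at 308 and 279. Channels of the outer mitochondrial membrane were close between stages, with vdac2 at 323 and 319 and vdac3 at 252 and 273, while ENSDARG00000092899, described as an FXYD regulator of ion transport, was at 297 and 419. The gene rack1, for a ribosome-bound scaffold protein, was at 697 and 711 and c20h6orf58 at 880 and 883. The gene ENSDARG00000034273, described by its likeness to the basement membrane proteoglycan perlecan, was at 1967 and 1012, just within 2-fold and past it under median-ratio scaling (−1.05 on the log2 scale). The gene zgc:153911, described as HERV-H LTR-associating protein 2, was at 230 and 494. Among genes with a symbol but no description, si:dkey-151g10.6 was at 2703 and 2681, dap1b at 1542 and 1045, ttc36 at 574 and 373 and si:dkey-153m14.1 at 918 and 1936.

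Function terms were not used by the ranking. A gene ontology entry was listed for 282 of the 300 and for 8632 of the background genes. The term for structural constituents of the ribosome was carried by 45 of 282 members (16.0%) and by 1.54% of the 8632. The term extracellular region was carried by 32 members (11.3%) and by 4.82%, with 6 of the 32 being 2-fold lower at 7.5 dpf and 0 higher, beside 22 lower and 12 higher among the 300 and 37.0 and 26.1% of the background genes. The term nucleus was carried by 42 members (14.9%) and by 29.1%. Annotation for the mitochondrion was close in the members (10.6%) and overall (8.72%).

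Gene length set apart the share of molecules from the share of reads. The implied length of the members had a median of 1410 bases, beside 2044 for 6556 genes with enough reads. Apolipoproteins took 13.1% of the RPKM sum but 8.22% of reads at 5.5 dpf, and fatty acid binding proteins 3.16 and 1.18%. Carbohydrate enzymes took more of the reads (4.02%) than of the RPKM sum (2.91%). Of the 300 genes, 247 were also among the 300 highest by the lower share of reads.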

How the data were processed

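Expression in 2 wild-type libraries was taken from a table of RPKM for all genes, which the authors deposited. The tools, per the submitters' processing notes and without their roles, were TopHat2 2.0.12 and Bowtie2 2.2.3, DESeq 1.16.0, and HTSeq 0.6.0. Which genome build, annotation and strand setting they used: not given in the sources used here. The columns named as normalized in the authors' deposited comparison tables held CPM. Dividing each library's CPM by the worth of 1 read gave whole reads for 100% of the values of 1 read or more (tolerance 0.01), and from these totals, shares of reads, gene lengths and 95% exact intervals of ratios were computed. With 1 library per group no count test was run. A gene with no read could have been present at up to 3 reads, equal to 0.0834 CPM at 5.5 dpf and 0.0811 CPM at 7.5 dpf.

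Symbols came from a table that matched 260 of the 300 genes and 65.0% of all IDs, and are written in lower case. Differences are of log2(RPKM + 1), held against 2-fold without a test. Named genes were the 30 highest, the 4 highest of each class, the 10 largest differences in each direction and the genes around place 300; some results are not reported here. The genes scp2a, cox5b, fgb, pvalb1, krt8, krt18a.1, anxa4, krt5, krt91 and ckmb were added after their values were seen. So were hbae3, coro1a, lyz, mmp9, col1a2 and hand2. Members, lists and classes were chosen with earlier results of these data known. The class patterns caught a few unrelated symbols outside the 300. Reads recovery and the 2-fold rule were tested on simulated data that held counting noise alone, without variation between animals or from amplification. Python 3.11.15, pandas 2.3.3, NumPy 2.4.6, SciPy 1.17.1 and Matplotlib 3.10.9 were used.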

Additional observations from a re-analysis of the deposited data

How the results depend on the processing

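The share held by the abundant genes (73.9 and 74.1% at 5.5 and 7.5 dpf) was 74.2 and 74.4% when genes were ranked by the mean. It was 59.8 and 61.1% for 100 genes, 79.7 and 79.95% for 500, and 67.0 and 67.0% of reads. Without mitochondrially encoded protein genes, which were found by symbol, it was 71.7 and 71.8%. Entries without a symbol stayed in. Without markers of other cells the share was 73.8 and 74.0%. In an alternative chosen after seeing the data, it was 70.4 and 69.8% without the most abundant ID. On the log2 scale, the ratio of shares between stages (7.5 over 5.5 dpf) of secreted plasma proteins was −0.33. It was −0.37 in reads, −0.33 without mitochondrially encoded protein genes and −0.40 over the whole pattern lists. By pattern alone it was −0.43, and without the most abundant ID −0.29. In reads, over the whole lists, by pattern alone and without that ID, the nuclear respiratory chain (−0.77) was at −0.75, −0.71, −0.76 and −0.74, and intermediary metabolism (0.15) at 0.14, 0.16, 0.25 and 0.18. In reads and without that ID, ribosome and translation (0.071) was at 0.032 and 0.11, and mitochondrially encoded protein genes (0.023) at 0.0099 and 0.058. The mixed remainder of other named functions reversed by pattern alone, from −0.18 to 0.043, the classes then holding fewer genes. Members higher and lower numbered 24 and 62 at 1.5-fold and 1 and 0 at 4-fold; 22 were higher when ranked by the mean. The median difference of −0.063 was −0.15 under median-ratio scaling and −0.076 when ranked by the mean. Of 25 calls of 2-fold among 118 named genes, 3 were lost under median-ratio scaling (fetub, cyt1l and si:dkey-153m14.1) and 1 with a pseudocount of 5 (cyt1l), while ENSDARG00000034273 and fkbp1aa passed 2-fold under that scaling, and 0 reversed. No paired analysis was possible because there is 1 library per stage.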

Other observations

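Some genes were among the highest 300 of a library but lay outside the chosen 300 because their lower value missed the last place, some narrowly and some by far. Those named here were picked after their values were seen. Among the highest 300 of the 5.5 dpf library 37 were not members, and they took 1.97% of its RPKM sum. The highest was apcs, a pentraxin gene, at 760 RPKM at 5.5 dpf and 61.8 at 7.5 dpf. The gene msmo1, of cholesterol synthesis, was at 523 and 37.3, and ssr2, of the translocon-associated complex, at 467 and 122. In the 7.5 dpf library 36 of the highest 300 were not members, with 2.05% of its RPKM sum. The highest was ENSDARG00000070420, described as a vitamin D 24-hydroxylase, at 201 and 991 RPKM. The trypsin genes prss59.2 and prss1 were at 136 and 688 and at 112 and 500, and the lipoprotein lipase gene lpl at 156 and 489.

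Genes of endoplasmic reticulum folding and protein export were mostly outside the 300. Of 58 background genes (mean RPKM of 1 or more), 31 were 2-fold lower at 7.5 dpf and 8 higher, with a median difference of −1.12, beside 37.0 and 26.1% and a median of −0.19 over all 9523 genes. The list was a symbol pattern that also took in a few unrelated genes such as srpk1a and ssrp1. The lipid and sterol list had 40 of 85 genes 2-fold lower and 12 higher, with a median of −0.96.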
